A study of Homo sapiens with 4 samples.

Results

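Eph receptors and ephrins, the membrane proteins through which neighbouring cells signal to each other by contact, were followed in HaCaT keratinocytes given a cytokine mix. The group comprised 10 genes picked by symbol, 7 receptors (EPHA1, EPHA2, EPHA4, EPHB2, EPHB3, EPHB4 and EPHB6) and 3 ephrins (EFNA1, EFNB1 and EFNB2). All 10 had a row among the 27356 genes of the deposited tables. HaCaT given M5 for 72 h was compared with HaCaT given phosphate-buffered saline (PBS) for the same time, with 2 libraries each. M5 is a mix of 5 cytokines, IL-1α, IL-17, IL-22, TNF-α and oncostatin M, each at 10 μg/L, added when the cells covered 50% of the plate. All libraries came from 1 immortalised human keratinocyte line grown in serum-containing medium. Groups follow the sample titles, which name M5 as do the protocols, although the treatment field of the M5 libraries gives an agent abbreviated DAC. Whether replicates were cultured separately is not stated, and each p-value therefore reflects only how far these libraries differ, which may be a technical spread.

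Eph receptors are receptor tyrosine kinases, and ephrins are their ligands on the surface of the adjacent cell. Ephrins of class A are held in the membrane by a lipid anchor and those of class B span it, so that binding can signal into both cells, forward through the receptor and in reverse through the ephrin. Each class of receptor mostly binds its own class of ephrin. In epidermis these contacts are known for their part in cell sorting, adhesion, migration and the balance of growth and differentiation, with EPHA2 and ephrin-A1 as the best studied pair.

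The M5 libraries held 18992988 and 19749612 counts and the PBS libraries 15858644 and 16051974. Of these, the 10 genes took 15143 and 14915 counts in M5, and 10531 and 10408 in PBS. All 12 keratinocyte markers had a row, and their summed FPKM was 4632 and 4284 in M5 and 3724 and 3678 in PBS. They did not move one way: 9 were called higher and 2 lower, beside 28.8% higher and 27.1% lower among all tested genes. The 2 lower were KRT5 (log2 fold change -0.96, edgeR adjusted p = 9.11e-12) and KRT15 (-1.48, edgeR adjusted p = 7.27e-13). The summed FPKM of the marker lists of fibroblasts, melanocytes and endothelial cells stayed at or below 0.731 in every library. EPHB4 and EFNB2 are also genes of endothelium, and the endothelial list stood at 0.436 and 0.623 in M5 and 0.281 and 0.281 in PBS, from 3 genes that did not move one way. CDH5 had 48 and 74 counts in M5 and 15 and 20 in PBS, and was called higher without a filter (log2 fold change 1.69, edgeR adjusted p = 0.0031). VWF had 3 and 0 counts in M5 and 19 and 11 in PBS, and was called lower without a filter (edgeR adjusted p = 0.0223). PECAM1 had 0 counts in both M5 libraries and 1 in each PBS library. The leukocyte list stood at 1.56 and 1.90 in M5 and 0.312 and 0.344 in PBS, nearly all of it CD74, the invariant chain of class II antigen presentation, while PTPRC, the pan-leukocyte marker, had no row. The part of these markers in the results was not tested. In bulk RNA, fewer cells expressing a gene and less RNA per cell cannot be told apart.

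M5 shifted the family towards EFNA1 and EPHB4 and away from EPHB3, EPHA4 and EFNB2. EFNA1 was 4.00-fold higher, EPHB3 was 3.40-fold lower and EPHA4 was 3.96-fold lower. EPHB4 was 1.60-fold higher and EFNB2 was 1.58-fold lower. EPHA2 and EFNB1, the receptor and the ephrin with the highest FPKM in the PBS libraries, were 1.30-fold and 1.23-fold higher. Of the 10 genes, 7 reached a mean FPKM (fragments scaled to gene length and library total) of at least 1 over the 4 libraries and were tested with edgeR on counts. Of these 7, 4 rose and 2 fell at a Benjamini-Hochberg adjusted p under 0.05, 6 in all. Of all 10809 tested genes 55.9% were called, 28.8% higher and 27.1% lower. The TMM-scaled CPM of the groups did not overlap for any of the 7, and did not overlap for 77.2% of all tested genes. The 7 had a median log2 fold change of 0.30, against -0.01 for all tested genes. At least 2-fold, 2 of the 7 were called, EFNA1 and EPHB3, against 9.61% of all tested genes. EPHA4, EPHB6 and EPHA1 lay under the filter and were read from the fit without one, where 22.4% of 27356 genes were called, 9.99% lower, and there EPHA4 and EPHB6 fell.

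**Figure D1:**
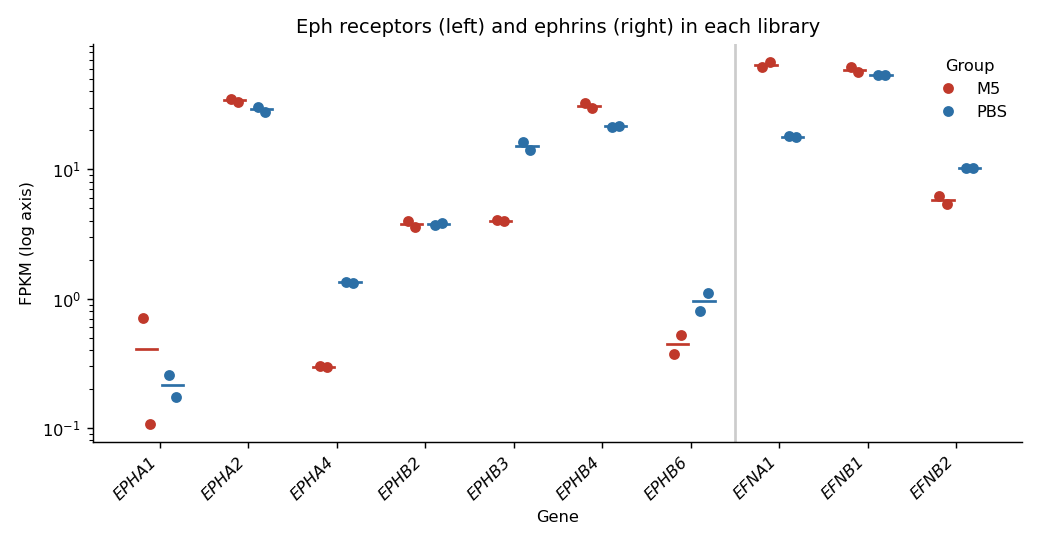
FPKM of each Eph receptor and ephrin in every library, on a log axis; points are libraries, M5 left of PBS for each gene, and bars are the means of 2 libraries. EFNA1 stands at 61.3 and 67.4 in M5 against 18.0 and 17.7 in PBS, while EPHB3 and EPHA4 stand lower in M5 and the groups of EPHB2 and EPHA1 overlap.

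EFNA1 encodes ephrin-A1, the main ligand of EPHA2 in epithelia, which was first described as a product induced by tumour necrosis factor in endothelial cells. The gene (ENSG00000169242) lies on the plus strand of chromosome 1 from 155127460 to 155134857 (GRCh38, GENCODE 29). It had 61.3 and 67.4 FPKM in M5 and 18.0 and 17.7 FPKM in PBS, from 2519 and 2884 counts in M5 and 617 and 616 in PBS. Both M5 libraries lay far above both PBS libraries, and the PBS libraries differed by under 1 FPKM. The log2 fold change was 2.00, with a 95% interval of 1.86 to 2.15 (SE 0.07, adjusted p = 1.15e-14 by edgeR). Among the ephrins EFNA1 ranked second behind EFNB1 in PBS without overlap, whereas in M5 the levels of EFNA1 and EFNB1 overlapped, at 61.3 to 67.4 and 56.2 to 61.7 FPKM. The overlap in M5 rests on the gene lengths used, 2165 bp for EFNA1 and 3303 bp for EFNB1. In M5 counts EFNB1 stood higher, at 3873 and 3665 against 2519 and 2884.

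EFNA1 sits at the end of a row of class A ephrin genes on chromosome 1, after EFNA4 (155063731 to 155069553) and EFNA3 (155078872 to 155087538), all on the plus strand. EFNA3 had 2.44 and 1.69 FPKM in M5 and 1.33 and 1.92 FPKM in PBS, so the groups overlapped (log2 fold change 0.49, 95% interval -0.08 to 1.07, edgeR adjusted p = 0.135). It was called higher without M5 replicate 2 (0.74, edgeR adjusted p = 0.0378) and without PBS replicate 2 (0.78, edgeR adjusted p = 0.0473). EFNA4 had 7.92 and 8.30 FPKM in M5 and 6.87 and 8.23 FPKM in PBS, again with overlap (log2 fold change 0.25, 95% interval -0.10 to 0.61, edgeR adjusted p = 0.214). In TMM-scaled CPM the EFNA4 groups did not overlap, at 10.5 and 11.0 in M5 and 8.19 and 9.82 in PBS, as for 77.2% of all tested genes. The upper bounds of both neighbours lie below the lower bound of EFNA1, and the difference between the genes was not tested. The 3 tested genes whose profile over the 4 libraries was nearest to that of EFNA1 were BNIP3, a mitophagy receptor, CA12, a carbonic anhydrase, and OSMR, the oncostatin M receptor chain. Likeness was the root mean square distance between centred log2(CPM + 1) values, where CPM is counts scaled to the TMM-adjusted library size, and came to 0.0258 for BNIP3, 0.0318 for CA12 and 0.0337 for OSMR. Their log2 fold changes were 2.04, 2.26 and 1.97. CA12 had only 2.99 and 3.08 CPM in PBS, and at such levels the added 1 makes its change look smaller.

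EFNB1 and EFNB2 encode transmembrane ephrins, which signal in reverse through tyrosines and a PDZ-binding end of their tails. EFNB1 (ENSG00000090776, chromosome X, 68828997 to 68842147, plus strand), mutated in craniofrontonasal syndrome, had 61.7 and 56.2 FPKM in M5 and 53.2 and 53.1 FPKM in PBS. The M5 libraries were higher without overlap, with a log2 fold change of 0.30 with an SE of 0.06 (adjusted p = 0.000328 by edgeR). This call depended on scaling and was lost with TPM scaling (0.12, edgeR adjusted p = 0.105) and with limma on log2(FPKM + 1) (0.15, limma adjusted p = 0.0737). EFNB2 (ENSG00000125266, chromosome 13, 106489731 to 106535662, minus strand), the arterial ligand of EPHB4 in the vasculature, had 6.25 and 5.42 FPKM in M5 and 10.3 and 10.2 FPKM in PBS. Both M5 libraries were below both PBS libraries, with a log2 fold change of -0.66 with an SE of 0.09 (adjusted p = 5.36e-06 by edgeR). An antisense gene without a symbol shares 1313 exonic bp with EFNB2 and had 32 and 18 counts in M5 and 26 and 28 in PBS, against 594 and 536 counts of EFNB2 in M5 and 814 and 820 in PBS.

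EPHA2, which gathers at keratinocyte contacts and binds ephrin-A1, had the highest FPKM of the receptors in both groups. The gene (ENSG00000142627, chromosome 1, 16124337 to 16156087, minus strand) had 35.0 and 33.2 FPKM in M5 and 30.4 and 27.9 FPKM in PBS. The groups did not overlap, and the log2 fold change was 0.38 with an SE of 0.06 (adjusted p = 4.19e-05 by edgeR). Its size ranged from 0.20 to 0.44 over the alternatives, each of which kept the call. EPHB4 (ENSG00000196411, chromosome 7, 100802565 to 100827521, minus strand), the receptor of ephrin-B2, had 32.5 and 29.6 FPKM in M5 and 21.3 and 21.6 FPKM in PBS. Both M5 libraries were above both PBS libraries, with a log2 fold change of 0.68 with an SE of 0.06 (adjusted p = 1.98e-08 by edgeR). EPHB4 ranked second in FPKM among the receptors in each group, without overlap with EPHA2 above it or EPHB3 below it. Its order with EPHA2 rests on the gene lengths used, 6437 bp for EPHB4 and 4141 bp for EPHA2. In counts EPHB4 stood higher, with 3978 and 3757 in M5 and 2179 and 2235 in PBS. EPHA2 had 2749 and 2718 counts in M5 and 1994 and 1854 in PBS. The exons of EPHB4 share 69 bp with the opposite-strand gene SLC12A9, which had 951 and 883 counts in M5 and 802 and 733 in PBS (edgeR adjusted p = 0.278, fit without a filter).

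EPHB3, an ephrin-B receptor known from cell positioning in the intestinal crypt, fell most among the tested members. The gene (ENSG00000182580, chromosome 3, 184561784 to 184582409, plus strand) had 4.02 and 4.00 FPKM in M5 and 16.1 and 14.2 FPKM in PBS, from 346 and 358 counts in M5 and 1157 and 1029 in PBS. The M5 libraries were nearly equal and far below both PBS libraries. The log2 fold change was -1.76, with a 95% interval of -1.96 to -1.57 (SE 0.09, adjusted p = 6.15e-12 by edgeR). EPHB2 (ENSG00000133216, chromosome 1, 22710839 to 22921500, plus strand), its close relative in that tissue, had 3.95 and 3.59 FPKM in M5 and 3.69 and 3.85 FPKM in PBS. These groups overlapped in FPKM, and the log2 fold change of 0.15 had a 95% interval of -0.02 to 0.32 (edgeR adjusted p = 0.124). Its direction depended on scaling, with -0.03 under TPM scaling, and without M5 replicate 2 it passed at 0.22 (edgeR adjusted p = 0.0329). EPHB3 stood above EPHB2 in FPKM in both groups without overlap, but in M5 by 4.00 to 4.02 against 3.59 to 3.95 FPKM. The order in M5 rests on the gene lengths used, 4530 bp for EPHB3 and 12516 bp for EPHB2. In M5 counts EPHB2 stood higher, at 940 and 888 against 346 and 358.

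EPHA4, EPHB6 and EPHA1 were the least abundant members. EPHA4 (ENSG00000116106, chromosome 2, 221418027 to 221574202, minus strand), a receptor that binds ephrins of both classes, had 43 and 44 counts in M5 and 161 and 161 in PBS. Within each group the libraries were nearly equal, and the log2 fold change was -1.99, with a 95% interval of -2.44 to -1.54 (SE 0.20, adjusted p = 2.69e-05 by edgeR without a filter). EPHB6 (ENSG00000106123, chromosome 7, 142855061 to 142871094, plus strand), a receptor whose kinase domain lacks catalytic activity, had 38 and 55 counts in M5 and 68 and 94 in PBS. Its log2 fold change of -0.90 passed narrowly (SE 0.27, edgeR adjusted p = 0.0327) and did not pass with DESeq2 (DESeq2 adjusted p = 0.0943). It also did not pass without M5 replicate 1 (-0.68), M5 replicate 2 (-1.16) or PBS replicate 2 (-0.65), with edgeR adjusted p = 0.35, 0.194 and 0.2. EPHA1 (ENSG00000146904, chromosome 7, 143390289 to 143408892, minus strand), the first Eph receptor to be cloned, rested on 1 library, with 63 and 10 counts in M5 and 19 and 13 in PBS. Its log2 fold change of 1.10 (adjusted p = 0.344 by edgeR) became -0.80 without M5 replicate 1 and 1.90 without M5 replicate 2, and without PBS replicate 1 it passed at 1.40 (edgeR adjusted p = 0.0302). With the robust edgeR fit it passed at the same 1.10 (edgeR adjusted p = 0.0395).

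**Figure D2:**
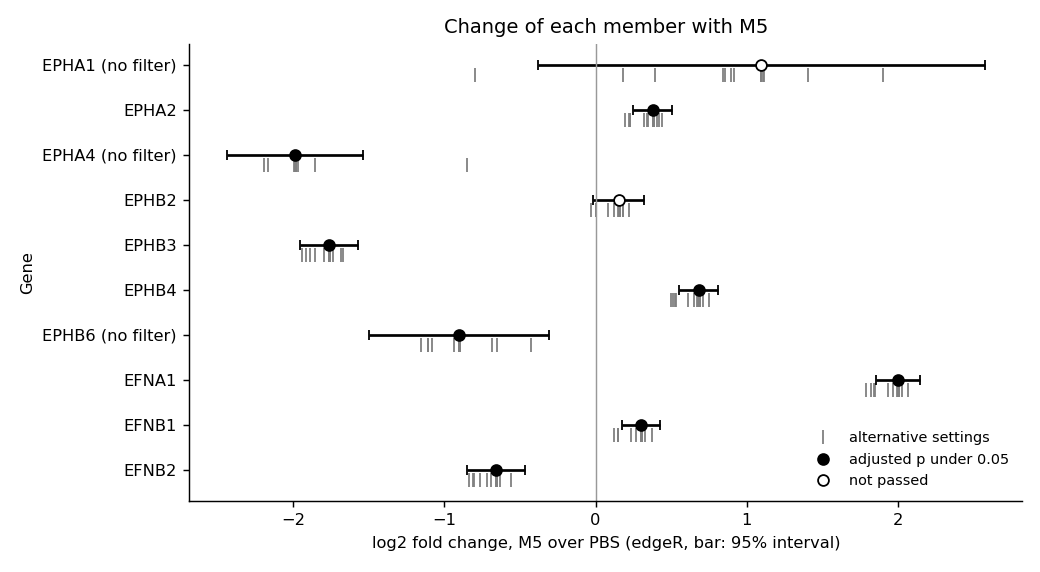
The log2 fold change of M5 over PBS for each gene, with the edgeR estimate and its 95% interval as point and bar, filled where the adjusted p is under 0.05, and the alternative settings as ticks. EFNA1 lies at 2.00, EPHB3 at -1.76 and EPHA4 at -1.99, and the interval of EPHB2 and of EPHA1 includes 0.

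The bases just before the transcription start are shown for EPHB3, EFNB2 and EPHA4, the members that fell and kept their calls under the alternatives run. They are the 250 bases before a RefSeq start on GRCh38.p14, read 5′ to 3′ on the gene's strand, with GC boxes (GGGCGG on either strand) and CCAAT boxes (CCAAT on either strand) in capitals. In EPHB3 a GC box and the CCAAT box overlap by their C bases.
EPHB3, chr3:184561535-184561784, plus strand: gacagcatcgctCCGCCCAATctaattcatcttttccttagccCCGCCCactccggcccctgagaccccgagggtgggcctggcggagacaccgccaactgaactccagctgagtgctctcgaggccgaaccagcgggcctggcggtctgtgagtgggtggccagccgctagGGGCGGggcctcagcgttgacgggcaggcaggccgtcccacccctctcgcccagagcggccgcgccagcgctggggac
EFNB2, chr13:106535663-106535912, minus strand: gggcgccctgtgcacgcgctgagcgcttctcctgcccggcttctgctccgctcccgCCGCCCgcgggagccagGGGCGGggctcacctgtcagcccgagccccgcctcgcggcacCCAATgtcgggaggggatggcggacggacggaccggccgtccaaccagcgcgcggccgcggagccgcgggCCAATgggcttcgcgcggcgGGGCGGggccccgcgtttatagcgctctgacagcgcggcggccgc
EPHA4, chr2:221574203-221574452, minus strand: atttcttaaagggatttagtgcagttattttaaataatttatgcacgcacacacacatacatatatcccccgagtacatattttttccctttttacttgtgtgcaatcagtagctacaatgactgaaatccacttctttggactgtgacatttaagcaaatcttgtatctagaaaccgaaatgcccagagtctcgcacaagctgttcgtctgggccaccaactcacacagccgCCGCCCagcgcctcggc

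The windows of EPHB3 and EFNB2 were rich in G and C, at 70.0% and 78.4%, and the window of EPHA4 was not, at 43.2%, against a median of 58.0% over all 35116 RefSeq windows. EPHB3 and EFNB2 each held 3 GC boxes, and EPHA4 held 1. EPHA4 has another RefSeq start downstream, whose window held 78.0% G and C and 5 GC boxes. All 12 windows of the 10 members had a GC box, as did 42.6% of all windows, and 7 of the 12 had a CCAAT box, as did 32.0% of all windows. None of the 12 windows of the 10 members held a STAT motif (TTCNNNGAA), an AP-1 motif (TGANTCA) or the NF-kB consensus on either strand, motifs found in 6.57%, 6.57% and 9.96% of all windows. The 2 windows of EPHB2 cover nearly the same bases, so the 12 are not all separate. The lack of matches says only that these letters are not in these windows. The window of EFNA1 is not printed because all 250 of its bases lie in exons of the gene in GENCODE 29. The window of EPHB6 (chromosome 7, 142862506 to 142862755) also lies inside its GENCODE 29 gene, which starts at 142855061. Both windows are counted among the 12.

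The summed FPKM of the 12 receptor genes with a row was 76.9 and 71.4 in M5 and 74.0 and 70.1 in PBS, so the groups overlapped in FPKM. FPKM uses library totals, whereas the fold changes use TMM, with factors of 0.946 and 0.952 in M5 and 1.05 and 1.05 in PBS. Those factors would move the M5 sums up and the PBS sums down, so the overlap is stated for FPKM only. Within the receptor sum EPHB4 made up 42.3% and 41.4% in M5 and 28.9% and 30.8% in PBS. EPHB3 made up 5.23% and 5.61% in M5 and 21.8% and 20.2% in PBS, and EPHA2 45.4% and 46.6% in M5 and 41.1% and 39.8% in PBS. The 8 ephrin genes with a row summed to 141 and 141 FPKM in M5 and 91.9 and 93.2 FPKM in PBS, without overlap. EFNA1 made up 43.3% and 47.9% of that sum in M5 and 19.5% and 19.0% in PBS, whereas EFNB1 made up 43.7% and 39.9% in M5 and 57.9% and 56.9% in PBS. EFNB2 made up 4.42% and 3.85% in M5 and 11.2% and 11.0% in PBS. All these shares rest on the gene lengths used.

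**Figure D3:**
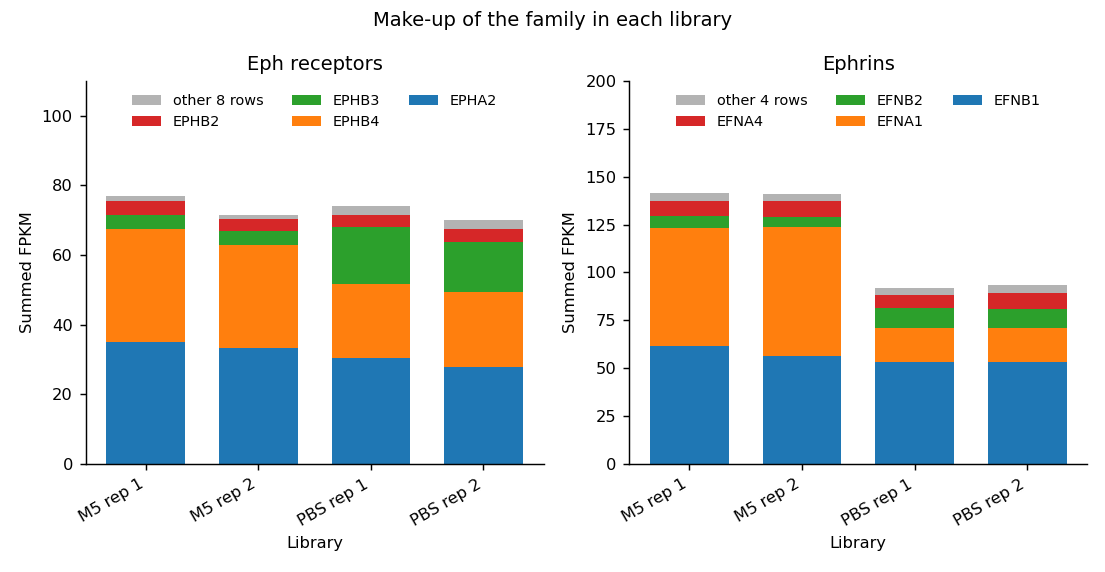
Summed FPKM of the Eph receptor genes (left) and the ephrin genes (right) in each library, stacked by gene, M5 left of PBS. On this scale, which uses library totals and not TMM, the receptor sums overlap between the groups. The ephrin sums are 141 and 141 in M5 and 91.9 and 93.2 in PBS, with the EFNA1 segment larger in both M5 libraries.

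Ratios of FPKM within a library do not depend on its scaling, but their level rests on the gene lengths used. For EFNA1 and EPHA2 these were 2165 bp and 4141 bp. In M5 counts EFNA1 had 2519 and 2884, and EPHA2 had 2749 and 2718. Summed counts of the member ephrins were 6986 and 7085 in M5, below 8157 and 7830 for the member receptors. In PBS the ephrin sums were 4220 and 4249, below 6311 and 6159. In FPKM, EFNA1 per EPHA2 was 1.75 and 2.03 in M5 and 0.592 and 0.636 in PBS, 3.08-fold higher in the mean. EFNB2 per EPHB4, the class B pair, was 0.192 and 0.183 in M5 and 0.480 and 0.472 in PBS, so this ligand-to-receptor ratio moved the opposite way. EPHB3 per EPHB4 was 0.124 and 0.135 in M5 and 0.755 and 0.654 in PBS. All ephrins per all receptors came to 1.84 and 1.97 in M5 and 1.24 and 1.33 in PBS. None of these ratios overlapped between the groups, and with 2 libraries against 2 the exact two-sided permutation test gave p = 0.333 for each, the smallest value it allows.

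Of the 12 other human family genes, EPHA5 and EPHA7 had no row, and 3 of the other 10 were tested: EFNA3, EFNA4 and EFNA5. With all 4 libraries none of these 3 was called by edgeR, DESeq2 or limma, and 0 had an unadjusted p under 0.05, whereas EFNA3 was called higher when M5 replicate 2 or PBS replicate 2 was left out. EFNA5 had a log2 fold change of -0.02 (95% interval -0.38 to 0.34). Without a filter edgeR called 0 of 10, with 2 at an unadjusted p under 0.05, EPHA6 and EPHA10. DESeq2 without a filter called 0, but gave no adjusted p for 6 of the 10. EPHA10, a receptor predicted to lack kinase activity, had 7 and 11 counts in M5 and 1 and 1 in PBS, a ratio of 8.23 with an exact 95% interval of 1.97 to 73.1 that covers counting error only (edgeR adjusted p = 0.0593). EPHA6 had 10 and 1 counts in M5 and 0 in both PBS libraries.

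Genes that carry Eph and ephrin signals inside the cell were counted in 6 lists of 69 genes, all with a row. Of the 55 tested, 35 rose and 7 fell, 76.4% called beside 55.9% of all tested genes, with a median log2 fold change of 0.30. With TPM scaling 26 rose and 10 fell, since that scaling moves the median of all tested genes to -0.19. Each list stands beside 28.8% higher and 27.1% lower among all tested genes, and with so few genes a list no share was read as particular to it. Of 17 adaptors and exchange factors 8 rose and 2 fell, led by SIPA1L1, a Rap GTPase activator that binds EPHA4 in neurons, at 1.09. The 2 lower were ITSN1 and PIK3R1, and only ITSN1 was called lower without M5 replicate 1, PBS replicate 1 or PBS replicate 2. Of 8 kinases and phosphatases 7 rose and 1 fell. LYN, a SRC family kinase, had 157 ± 6.05 CPM in M5 and 50.3 ± 1.23 CPM in PBS (SD, n = 2 each), a log2 fold change of 1.64 (adjusted p = 6.94e-14 by edgeR).

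The PDZ partners of class B ephrins and of Eph receptors numbered 4 higher and 2 lower of 7, beside 28.8% higher and 27.1% lower among all tested genes. The 2 lower, GRIP1 and RGS3, were not among the genes tested at a mean FPKM of at least 5. SDCBP, the scaffold syntenin-1, had 281 ± 9.12 CPM in M5 and 107 ± 4.05 CPM in PBS (SD, n = 2 each), a log2 fold change of 1.39 (adjusted p = 2.57e-13 by edgeR). AFDN, the junction protein afadin, rose by 1.04. GRIP1, a multi-PDZ scaffold of ephrin-B ligands, had 17.0 ± 0.770 CPM in M5 and 38.6 ± 1.69 CPM in PBS (SD, n = 2 each), a log2 fold change of -1.18 (adjusted p = 8.31e-09 by edgeR). MYL9, a myosin light chain and no PDZ protein, had 5.81 ± 0.662 CPM in M5 and 2.02 ± 0.184 CPM in PBS (SD, n = 2 each), a log2 fold change of 1.52 (adjusted p = 4.17e-05 by edgeR).

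Of 7 genes of shedding and turnover 4 rose and 1 fell, 5 called beside 55.9% of all tested genes. The lower call, CBLB, a ubiquitin ligase, was weak (log2 fold change -0.32, edgeR adjusted p = 0.0242). It was not called with DESeq2, without a filter, at an adjusted p of 0.01, or without M5 replicate 2 (-0.26, edgeR adjusted p = 0.104) or PBS replicate 2 (-0.26, edgeR adjusted p = 0.193). MMP14, a membrane metalloprotease that cleaves EPHA2, had 1141 ± 43.3 CPM in M5 and 364 ± 16.9 CPM in PBS (SD, n = 2 each), a log2 fold change of 1.65 with an SE of 0.06 (adjusted p = 9.15e-15 by edgeR). ADAM10, a protease known to shed class A ephrins, had a log2 fold change of -0.12 (adjusted p = 0.0809 by edgeR), and was called lower with TPM scaling (-0.30), library totals (-0.27), limma at pseudocounts of 1 (-0.25) and 0.1 (-0.27), a mean FPKM of at least 5 (-0.15) and without M5 replicate 2 (-0.15). NCSTN, the γ-secretase subunit nicastrin, rose by 0.49. Of 5 tested epidermal partners of EPHA2 4 rose and 0 fell, beside 28.8% higher and 27.1% lower among all tested genes, led by the membrane scaffold FLOT2 at 1.22, with E-cadherin (CDH1) at 0.43. With TPM scaling 3 were higher and 1 was lower, since ERBIN was no longer called (-0.02) and the claudin CLDN4 was called lower (-0.16, edgeR adjusted p = 0.0338). DSG1, the desmosomal cadherin through which EPHA2 is known to act in differentiating epidermis, averaged 0 CPM in M5 and 0.0894 CPM in PBS and was not tested.

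**Figure D4:**
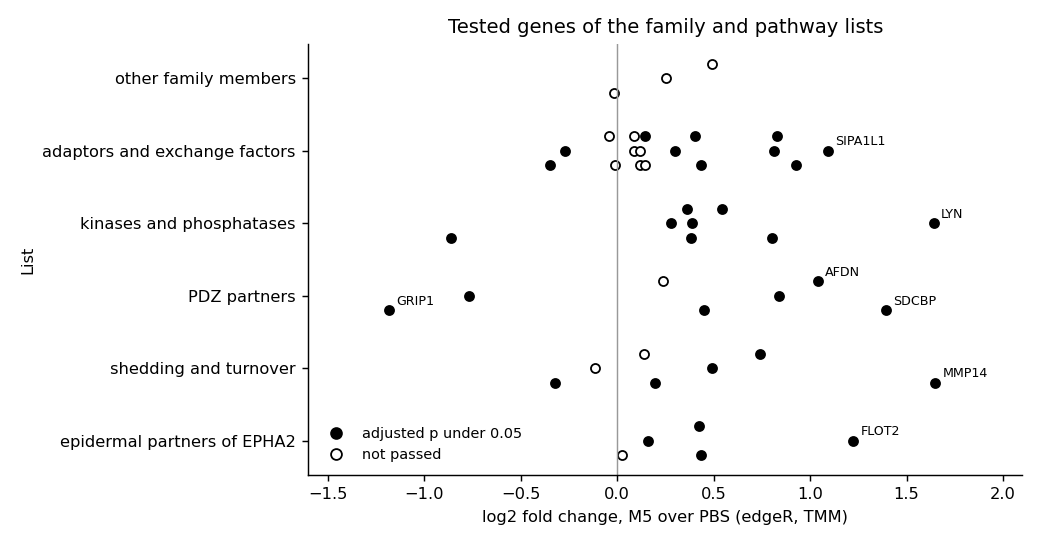
The log2 fold change of M5 over PBS (edgeR, TMM scaling) for each tested gene of the other family genes and of 5 pathway lists, 1 point a gene, filled where the adjusted p is under 0.05; genes at 1 or beyond in either direction are named. Named genes lie at 1.04 to 1.65, except GRIP1 at -1.18.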

How the data were processed

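Polyadenylated RNA of 4 HaCaT libraries (2 M5, 2 PBS) was sequenced. The deposited files give each Ensembl gene 1 count column and 1 FPKM column, per the file headers. The authors' FPKM were made from the deposited counts, gene length and each file's total, since count divided by FPKM gives 1 length per gene. Per the submitters' processing notes HISAT2, HTSeq 0.13.5 and GRCh38 are named, without roles; for annotation release, strand setting and multiple alignments the entry is: not given in the sources used here. Since the library kit in the labels' protocols is unstranded, antisense reads cannot be told apart from sense reads. Positions are from GENCODE 29 and promoter windows from RefSeq (GRCh38.p14), where all 10 symbols matched.

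Counts were tested with edgeR 4.0.16 (quasi-likelihood, TMM, two-sided, R 4.3.3) where the mean FPKM over the libraries reached 1, with Benjamini-Hochberg adjustment over all tested genes and a threshold of 0.05. Standard errors were derived from the log2 fold change and its F statistic, and intervals are at 95%. Genes under the filter were read from the fit without one. Alternatives were DESeq2 1.42.0, limma 3.58.1 on log2(FPKM + 1) and log2(FPKM + 0.1), other scalings, filters and thresholds, a robust fit, a replicate block and each library left out. The genes and lists were chosen with earlier results of these data known. Named in the text are all members, the list genes called at an absolute log2 fold change of at least 1, and the 3 nearest profiles to EFNA1; others, and the GC and CCAAT boxes, were chosen after their values were seen. The count of 1 pathway list and 1 gene of another are not reported here. Checked on counts simulated for the 10809 tested genes, edgeR called 23 of 50 genes set 1.25-fold apart, 42 of 50 at 1.5-fold, 49 of 50 at 2-fold and 49 of 50 at 4-fold, with 2.4% of calls false. The simulation gave every gene the same spread between replicates and changed only these genes, up and down alike. In the data 55.9% of tested genes were called, so the simulated shares hold for that setting only. No 2 libraries were copies: the median per-gene chi-square between replicates was 1.75 in M5 and 1.00 in PBS, and sampling noise would give 0.455.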

Additional observations from a re-analysis of the deposited data

How the results depend on the processing

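EFNA1, EPHB3, EPHB4, EFNB2, EPHA2 and EPHA4 kept their direction and their call under every alternative that was run. Their log2 fold changes ranged from 1.79 to 2.07, -1.94 to -1.67, 0.50 to 0.75, -0.84 to -0.56, 0.20 to 0.44 and -2.19 to -0.85, and the value of -0.85 for EPHA4 is on the log2(FPKM + 1) scale, which understates low genes. EPHA4 lay under the filter and had 13 alternatives, all of the fit without one, against 15 for each of the others. Without M5 replicate 1 (-2.00) or M5 replicate 2 (-1.97) EPHA4 passed only narrowly. EFNB1 was no longer called with TPM scaling (0.12), limma on log2(FPKM + 1) (0.15) or limma on log2(FPKM + 0.1) (0.15). EPHB2 was -0.029 with TPM scaling and -0.0001 with limma on log2(FPKM + 0.1), and ranged from 0.083 to 0.22 with 1 library left out. EPHB6 was not called with DESeq2 (-0.90), limma on log2(FPKM + 1) (-0.43), limma on log2(FPKM + 0.1) (-0.94) or at an adjusted p of 0.01 (-0.90), and ranged from -1.16 to -0.65 with 1 library left out. EPHA1 was called with the robust edgeR fit (1.10) and ranged from -0.80 to 1.90 with 1 library left out. The members called lower numbered 4 without a filter, because EPHA4 and EPHB6 then entered the test. Of all tested genes, 2027 were higher and 4739 lower with TPM scaling, 4463 lower with library totals, and 2010 and 2005 higher with limma at pseudocounts of 1 and 0.1, against 3114 higher and 2929 lower with TMM. The pathway genes called lower numbered 3, against 7, with a mean FPKM of at least 5, where fewer genes were tested. The median of all tested genes moved from -0.01 to -0.16 with library totals and to -0.19 with TPM scaling, which carries the smaller changes with it. The replicate block changed no call of a member, with 4 higher and 2 lower, and EFNA1 at 2.00 in it. Deviations of same-numbered libraries had a correlation of -0.01, so the numbers were not read as pairs. At the low counts of EPHA4, EPHB6 and EPHA1, counting error limits what can be seen.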

Other observations

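CDC42 had 34 to 77 counts in each library, whereas RAC1 had 9137 to 14382. FLOT1 had 0 to 9 counts, whereas its partner FLOT2 had 2381 to 6215. ZYX, which overlaps the end of EPHA1 on the opposite strand, had 33 and 38 counts in M5 and 29 and 25 in PBS. These genes were chosen after their values were seen, and why they are low was not tested. Whether the deposited counting left out reads of these genes cannot be seen from the count tables, so the low counts are not read as low expression. Among adaptors under the filter, VAV3, an exchange factor used by EPHA2 in endothelium, averaged 1.20 CPM in M5 and 5.12 CPM in PBS (log2 fold change -2.06, edgeR adjusted p = 0.000308 without a filter), and NGEF, the exchange factor ephexin-1 of EPHA4 signalling in neurons, averaged 0.330 CPM in M5 and 1.79 CPM in PBS (-2.40, edgeR adjusted p = 0.00768 without a filter).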
